A study of Mus musculus with 12 samples.

Results

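The genes described here are the parts of the Wnt pathway that lie between the ligand and the nucleus, with the inhibitors that act on them: the Frizzled receptors and Lrp co-receptors, the dishevelled proteins, the beta-catenin destruction complex, the Tle and Ctbp co-repressors, the Bcl9 and Pygo co-activators, the secreted inhibitors, and the proteins that control receptor turnover. They form a list of 48 genes chosen by name, and all 48 were found on the array among 18193 genes with a probe set of their own. Together they carry 122 of the 45101 probe sets, a probe set being a group of short oligonucleotides that reads 1 transcript. A gene was represented by its brightest probe set, and 43 of the 48 passed the filter on low signal. Of those, 40 were above the detection floor on all 12 arrays, Fzd1 was on 11, and Lrp5 and Lgr5 were on 7, so the groups where these last are high are also what let them pass.

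Mouse embryonic stem (ES) cells were grown without feeder cells on gelatin in 15% serum with 1000 U/ml of Lif, the cytokine that keeps them self-renewing. There were 2 genotypes, Tcf3+/+ (called wild type here) and Tcf3-/- (knockout), and each was kept in control medium or given recombinant Wnt3a at 50 ng/ml for 24 hours. Each of the 4 groups had 3 Affymetrix arrays, 12 in all. The labels do not say which clone carried the deletion, which exons it removed, or whether the 3 replicates came from separate cultures, so each p-value weighs a difference against array-to-array spread alone, and that spread may be technical.

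Tcf3 (symbol Tcf7l1) is a DNA-binding partner of beta-catenin that mainly represses its target genes in ES cells. In the resting pathway a complex of Axin, Apc, Gsk3 and casein kinase 1 marks beta-catenin for destruction, and Tle co-repressors sit on the Tcf proteins. When a Wnt ligand joins a Frizzled receptor to Lrp5 or Lrp6, dishevelled is recruited, the complex is disabled, and beta-catenin reaches Tcf proteins together with Bcl9 and Pygo; secreted Dkk and Sfrp proteins block the ligand or the co-receptor. In ES cells Wnt signalling supports self-renewal. The comparisons asked how the loss of Tcf3 and the addition of Wnt3a changed these genes, and whether the response to Wnt3a differed between the genotypes.

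Values are log2 intensities, normalised by the authors, and a difference of 1 is a 2-fold change. Where a group's mean lay under the detection floor, the 40th percentile of all values, a fold is given against the floor as "at least". The Tcf7l1 probe set 1436207_at read 10.77 to 10.90 on the wild-type control arrays and 9.37 to 9.58 on the knockout control arrays; 1450117_at also separated the genotypes, and it is not known whether either probe set lies in the deleted part. All 6 ES cell markers were above the floor of 5.56 on all 12 arrays, and their summed intensity (log2) was 15.85 to 15.93 in wild-type control, 16.10 to 16.21 in wild-type Wnt3a and 16.23 to 16.27 in knockout control arrays. The summed intensity of 6 trophectoderm markers (log2) was 14.30 to 15.03 in wild-type control arrays against 10.36 to 10.80 in knockout control arrays. With Wnt3a it was 13.95 to 14.23 against 10.35 to 10.51. Elf5 was below the floor throughout, and the list includes the keratins Krt7, Krt8 and Krt18. Such a sum is set mostly by its brightest members, so the 6 need not have moved together. The sum of 4 mesoderm markers, a list that shares Eomes, was 8.76 to 8.97 in wild-type control and 8.87 to 9.16 in knockout control arrays. The sum of 4 neural markers was 10.01 to 10.18 in wild type and 9.25 to 9.48 in knockout in control medium. That of 8 fibroblast markers, with Col3a1 and Lum below the floor on every array, overlapped between the genotypes in both media. The actin 3'-5' difference, a sign of RNA integrity, averaged 0.21 in wild-type and 0.35 in knockout control arrays. The dap spike-in control averaged 4.25 on control arrays and 10.95 on Wnt3a arrays, so medium and array preparation cannot be told apart. The part of these differences in the results below was not tested.

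The upstream sequences of 4 genes are shown. With the brightest probe set, Fzd5 rose in the knockout and with Wnt3a in wild-type cells, and Fzd7 fell in all 4 pairwise comparisons. Fzd1 was the single gene of the list whose brightest probe set was called for a difference in Wnt3a response between genotypes. Fzd7 and Dkk1 hold a match to the core Tcf motif. The RefSeq table (build GRCm38.p6) had an entry for 31 of the 48 genes. The 250 bases before the start site were searched on both strands for the 4 heptamers made of CTTTG followed by a pair of bases that are each A or T, and 4874 of 32851 windows of that length (14.8%) held at least 1. In the list 3 genes did, the other being Gsk3a, the kinase paralogue of Gsk3b. Capitals mark a match, which is a description of the letters and not a site of binding. Fzd1 is from chr5:4758217-4758466 (minus strand), Fzd5 from chr1:64737751-64738000 (minus strand), Fzd7 from chr1:59481897-59482146 (plus strand) and Dkk1 from chr19:30549497-30549746 (minus strand), each written 5′ to 3′ along its gene.
Fzd1: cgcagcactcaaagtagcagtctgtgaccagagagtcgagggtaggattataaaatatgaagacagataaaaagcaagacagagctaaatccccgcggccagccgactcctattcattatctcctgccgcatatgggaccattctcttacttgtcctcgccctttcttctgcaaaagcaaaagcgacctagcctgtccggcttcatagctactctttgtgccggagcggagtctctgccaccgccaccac
Fzd5: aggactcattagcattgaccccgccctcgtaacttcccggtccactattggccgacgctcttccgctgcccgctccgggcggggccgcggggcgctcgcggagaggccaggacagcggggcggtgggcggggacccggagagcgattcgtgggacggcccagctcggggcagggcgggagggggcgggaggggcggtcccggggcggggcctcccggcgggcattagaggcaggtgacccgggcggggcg
Fzd7: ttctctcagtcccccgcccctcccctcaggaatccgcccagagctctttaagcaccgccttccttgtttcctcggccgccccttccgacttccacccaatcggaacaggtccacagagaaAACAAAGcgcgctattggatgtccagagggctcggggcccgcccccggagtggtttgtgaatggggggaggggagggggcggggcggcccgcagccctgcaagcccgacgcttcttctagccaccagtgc
Dkk1: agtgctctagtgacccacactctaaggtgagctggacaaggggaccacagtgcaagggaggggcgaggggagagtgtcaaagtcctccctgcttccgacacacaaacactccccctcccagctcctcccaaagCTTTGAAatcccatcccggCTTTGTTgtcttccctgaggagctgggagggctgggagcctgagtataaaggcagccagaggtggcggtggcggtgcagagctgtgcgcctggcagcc
The match in Fzd7 reads AACAAAG, which is CTTTGTT on the opposite strand, and starts 130 bases before the start site. Dkk1 holds 2 matches, starting 117 and 98 bases before it.

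Loss of Tcf3 in control medium was followed by lower signal of most of the listed genes that changed. Of the 43 tested, 4 rose and 16 fell (limma, Benjamini-Hochberg adjusted p under 0.05 over all 13811 genes tested), which is 46.5% of them beside 42.2% of all genes tested (19.9% higher and 22.3% lower). Fzd2, Fzd6 and Sfrp2 fell by more than 1 log2 and Fzd5 rose by more than 1 log2. The median change over the 43 was -0.07, against 0.01 over all genes. These changes went with the lower trophectoderm and neural marker sums and the higher actin 3'-5' difference of the knockout given above, whose part was not tested. In whole cultures fewer cells of a type and less RNA per cell cannot be told apart. Without 1 array at a time the counts ran from 3 to 5 higher and from 11 to 17 lower, and with each array centred on its median the falls of Ctbp2 (0.0845), Gsk3b (0.0862) and Tnks2 (0.0531) were no longer called.

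With Wnt3a in wild-type cells more of the listed genes also fell than rose: 7 rose and 17 fell, 55.8% of the 43 beside 41.5% of all genes (18.9% higher and 22.6% lower). Medium and array preparation cannot be told apart. Here and below, each Wnt3a change is therefore a difference between the arrays of the media, whose cause was not tested. With the brightest probe sets, the largest change was in Fzd2, and Fzd5 had the largest rise. Dimmer probe sets of Tnks2 and Lrp6, given below, rose more. Beside these changes, the summed intensity (log2) of 5 endoderm markers was between 8.24 and 8.52 on the wild-type control arrays and between 8.75 and 9.14 on the wild-type Wnt3a arrays, and the trophectoderm sum was lower with Wnt3a. The Gapdh 3'-5' difference, with means of 0.0087 and -0.089, did not overlap either, and the part of these differences was not tested. When each array was centred on its median the counts became 8 higher and 12 lower, and the share of higher calls among all genes called moved from 45.6% to 61.4%. The falls of Ctbp1 (adjusted p = 0.146), Nlk (0.164), Kremen1 (0.0748), Sfrp1 (0.0641) and Tle4 (0.0572) were then not called. This comparison and the knockout effect in control medium share the 3 wild-type control arrays, so their values are set side by side here and no overlap of their calls is given as a result.

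Fewer of the listed genes passed the test in the other comparisons. Wnt3a raised 5 and lowered 11 in the knockout, 37.2% beside 28% of all genes (13.3% higher and 14.7% lower), with 7 and 7 after median centring, which moved the all-gene share of higher calls from 47.5% to 66.2% and ended the calls of Bcl9 (0.0646), Dvl2 (0.095), Lrp5 (0.0558) and Tle1 (0.0603). Between knockout and wild-type cells in Wnt3a medium, 4 were higher and 13 lower, 39.5% beside 28% of all genes (13.2% higher and 14.7% lower). The test of the difference between the 2 Wnt3a responses called 1 gene of the list by its brightest probe set, 2.33% beside 4.08% of all genes (2.2% higher and 1.88% lower). Changes called and of at least 0.5 log2 were seen in 8, 9, 5 and 4 of the 43 genes in the knockout in control medium, Wnt3a in wild type, Wnt3a in knockout and the knockout in Wnt3a medium, beside 18.9%, 13.2%, 6.76% and 10.4% of all genes. In the same order the arrays of the groups compared did not overlap for 25, 29, 24 and 24 of the 43, beside 54.1%, 52.8%, 43.8% and 42.6% of all genes.

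**Figure D1:**
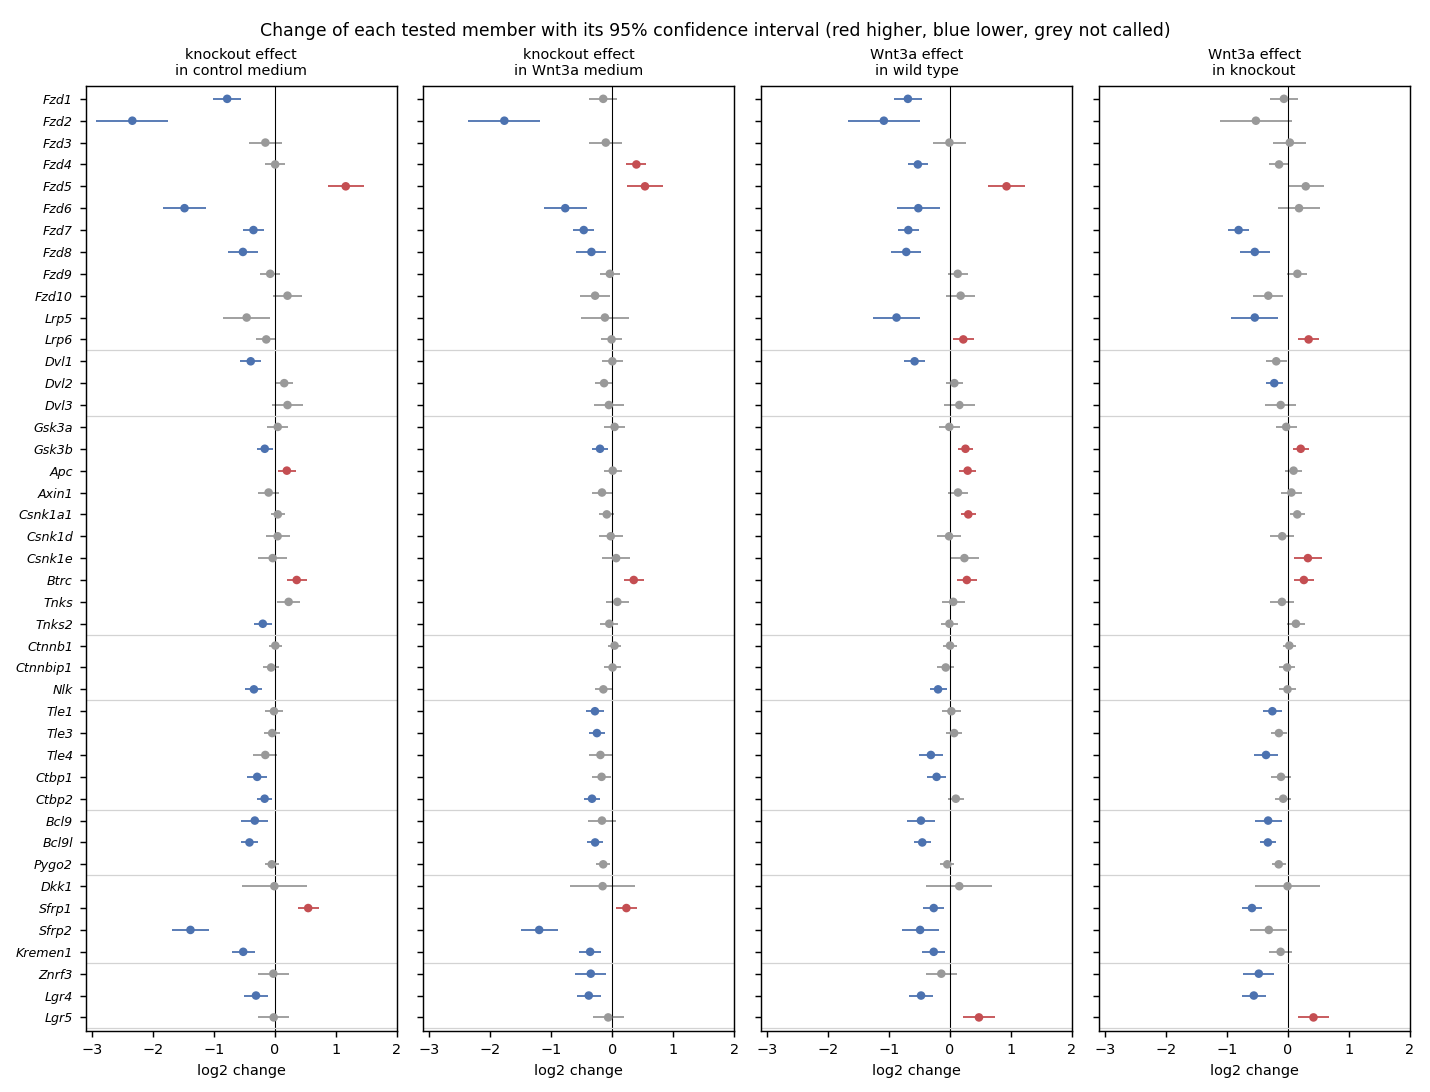
Change (log2) of each of the 43 tested genes, grouped by role from receptors at the top to receptor turnover at the bottom, in the 4 pairwise comparisons. Points are limma estimates from 3 arrays per group, bars are 95% confidence intervals, and colours show the call; the longest shift is that of Fzd2 in the knockout, at -2.33 in control medium.

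Among the Frizzled receptors and co-receptors, the proteins that bind Wnt at the cell surface, 1 of 12 rose and 5 fell in the knockout in control medium. With Wnt3a in wild-type cells 2 rose and 7 fell. These were 50% and 75% of the 12, beside 42.2% and 41.5% of all genes. Fzd2 read 10.92, 9.91 and 10.32 on the wild-type control arrays (replicates 1 to 3), 9.72, 9.32 and 8.86 on the wild-type Wnt3a arrays, 7.99, 7.88 and 8.28 on the knockout control arrays and 7.97, 7.31 and 7.31 on the knockout Wnt3a arrays. Every knockout array lay below every wild-type array. The knockout level was 5.04-fold lower in control medium (log2 change -2.33, SE 0.27, adjusted p = 2.93e-05) and 3.41-fold lower in Wnt3a medium (adjusted p = 0.000594). Wnt3a lowered Fzd2 by 2.12-fold in wild-type cells (log2 change -1.09, adjusted p = 0.00751). In the knockout its change of -0.52 did not pass (adjusted p = 0.169). Of its dimmer probe sets, 1418534_at also fell with Wnt3a in wild type (-0.84, adjusted p = 0.00807 over all probe sets tested). The other, 1418533_s_at, gave -0.57 there and was not called (0.102).

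Fzd6, a receptor also tied to planar polarity, read 8.98, 8.65 and 8.73 in wild-type control, 8.50, 8.29 and 8.01 in wild-type Wnt3a, 7.56, 7.09 and 7.28 in knockout control and 7.21, 7.61 and 7.66 in knockout Wnt3a arrays. The genotypes did not overlap in either medium, nor did the media in wild-type cells. It was 2.79-fold lower in the knockout in control medium (log2 change -1.48, SE 0.16, adjusted p = 1.8e-05) and 1.71-fold lower in Wnt3a medium (adjusted p = 0.00393). Its fall of 0.52 with Wnt3a in wild-type cells had an adjusted p of 0.0217, and was not called without wild-type control array 1 (0.0854) or wild-type Wnt3a array 3 (0.0878). With all probe sets of the gene averaged, the fall in Wnt3a medium was not called (adjusted p = 0.105).

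Fzd5 went the other way. Its values were 8.98, 9.53 and 9.19 in wild-type control arrays, 9.95, 10.15 and 10.38 in wild-type Wnt3a, 10.38, 10.42 and 10.40 in knockout control and 10.56, 10.69 and 10.84 in knockout Wnt3a. The wild-type control arrays were lowest, with no overlap with any other group. The knockout level was 2.24-fold higher in control medium (log2 change 1.16, SE 0.14, adjusted p = 3.07e-05) and Wnt3a raised it 1.90-fold in wild-type cells (adjusted p = 0.000323). In Wnt3a medium the knockout was 1.45-fold higher (adjusted p = 0.0122, or 0.0525 without wild-type Wnt3a array 1), and the change of 0.30 with Wnt3a in the knockout did not pass (adjusted p = 0.125). A second Fzd5 probe set, 1422937_at, gave 1.30 for the knockout in control medium but 0.04 for Wnt3a in wild-type cells (adjusted p = 0.846 over all probe sets tested) and -0.43 for Wnt3a in the knockout (0.0325).

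Fzd1 read 6.48, 6.50 and 6.66 in wild-type control arrays, 5.73, 5.91 and 5.93 in wild-type Wnt3a, 5.82, 5.68 and 5.80 in knockout control and 5.90, 5.48 and 5.73 in knockout Wnt3a. Only the wild-type control arrays were apart, above the other 9, and 1 array was below the floor. Fzd1 fell by 0.78 in the knockout in control medium (SE 0.10, adjusted p = 8.09e-05) and by 0.69 with Wnt3a in wild-type cells (adjusted p = 0.000361). In the knockout its Wnt3a change was -0.06 (adjusted p = 0.695). The difference between the Wnt3a responses was 0.63 (SE 0.15, interaction term, adjusted p = 0.0379), and it passed without wild-type control array 2, wild-type Wnt3a array 1, or knockout Wnt3a array 1 or 2, and was lost without each of the other 8 arrays (adjusted p 0.0621 to 0.103).

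Fzd7, a Frizzled linked to self-renewal of human pluripotent cells, fell in all 4 comparisons with its brightest probe set. It read 10.64, 10.70 and 10.71 in wild-type control arrays, 10.04, 10.07 and 9.89 in wild-type Wnt3a, 10.44, 10.35 and 10.22 in knockout control and 9.42, 9.55 and 9.62 in knockout Wnt3a. The 4 groups did not overlap. Wnt3a lowered it by 0.68 in wild-type (adjusted p = 6.91e-05) and 0.81 in knockout cells (adjusted p = 8.09e-05). The knockout changes were -0.35 in control medium (adjusted p = 0.00335) and -0.47 in Wnt3a medium (adjusted p = 0.00105), and neither was called when its probe sets were averaged (adjusted p = 0.124 and 0.377). The second probe set, 1450043_at, was called lower only with Wnt3a in wild type (-0.40, adjusted p = 0.011 over all probe sets tested). It gave -0.15 with Wnt3a in the knockout (0.305). For the knockout it gave 0.03 in control medium (0.881) and 0.27 in Wnt3a medium (0.0913).

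Fzd8 also fell in all 4 comparisons. It read 7.26, 7.18 and 7.05 in wild-type control arrays, 6.46, 6.48 and 6.40 in wild-type Wnt3a, 6.61, 6.68 and 6.64 in knockout control and 6.39, 5.84 and 6.08 in knockout Wnt3a. The wild-type control arrays were the highest and the knockout Wnt3a arrays the lowest, and the 4 groups did not overlap. The changes were -0.72 with Wnt3a in wild type (adjusted p = 0.000489), -0.54 with Wnt3a in the knockout (0.00478) and -0.52 for the knockout in control medium (0.00259). The fall of 0.34 in Wnt3a medium (adjusted p = 0.0395) was kept without any 1 of the wild-type control arrays or knockout Wnt3a array 1, and was lost without each of the other 8 arrays (0.0502 to 0.15).

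Fzd4 was lower with Wnt3a in wild-type cells. Its values were 6.32, 6.38 and 6.29 in wild-type control arrays, 5.95, 5.66 and 5.80 in wild-type Wnt3a, 6.38, 6.24 and 6.40 in knockout control and 6.20, 6.18 and 6.20 in knockout Wnt3a. The wild-type Wnt3a arrays were lowest. The fall with Wnt3a was 0.53 (adjusted p = 0.00027) and the knockout was 0.39 higher in Wnt3a medium (adjusted p = 0.00248), while the knockout change in control medium was 0.01. A second probe set, 1419301_at, also fell with Wnt3a in wild type (-0.49, adjusted p = 0.00464 over all probe sets). It gave -0.31 with Wnt3a in the knockout (0.057) and 0.17 for the knockout in Wnt3a medium (0.323). With the brightest probe set the difference between the Wnt3a responses, 0.39, did not pass (adjusted p = 0.0646), and did without wild-type Wnt3a array 1 (0.0218). For Fzd5 (-0.63, adjusted p = 0.0848) and Fzd6 (0.71, adjusted p = 0.101) the same test did not pass either; it did for Fzd5 without wild-type control array 2 (0.0225) or wild-type Wnt3a array 1 (0.0424), and for Fzd6 without knockout Wnt3a array 1 (0.0496).

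The co-receptors Lrp5 and Lrp6, which are phosphorylated when Wnt binds, moved in opposite directions with Wnt3a. Lrp5 read 6.67, 5.99 and 6.20 in wild-type control arrays, 5.13, 5.41 and 5.69 in wild-type Wnt3a, 6.10, 5.71 and 5.67 in knockout control and 5.33, 5.29 and 5.24 in knockout Wnt3a. The Wnt3a arrays were below the control arrays in each genotype, and all but 1 of them were below the floor. Lrp5 passed the signal filter only through its control arrays, so this separation is no separate support for the fall. Lrp5 was at least 1.65-fold lower with Wnt3a in wild-type cells (adjusted p = 0.00235) and at least 1.20-fold lower in the knockout (adjusted p = 0.0401). The latter was not called without 8 of the 12 arrays (0.0540 to 0.145; it passed without wild-type control array 1 or 2, or wild-type Wnt3a array 1 or 3). Its knockout change in control medium, -0.46 (adjusted p = 0.0552), passed when wild-type control array 2 (0.0199), array 1 of the knockout control group (0.0278), or wild-type Wnt3a array 1 (0.0413) or 3 (0.0418) was left out.

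Lrp6 rose by 0.34 with Wnt3a in the knockout (adjusted p = 0.00716) and by 0.22 in wild-type cells (adjusted p = 0.0397). The latter was not called without 8 of the 12 arrays (0.0508 to 0.113; it passed without knockout control array 2 or 3, or knockout Wnt3a array 1 or 3). Its second probe set, 1451022_at, rose by 1.16 in wild type and 0.78 in the knockout. With adjustment over the genes tested, Fzd3, Fzd9 and Fzd10 passed in none of the 5 tests with their brightest probe set. The nearest was Fzd10 with Wnt3a in the knockout (-0.32, adjusted p = 0.0503). It passed without wild-type control array 1 (0.0373) or 2 (0.0472), wild-type Wnt3a array 2 (0.0429) or 3 (0.04), or knockout Wnt3a array 1 (0.0276). Adjusted over all probe sets tested, the same Fzd10 probe set was called there (0.0474). For Fzd3 the other 3 probe sets tested fell in the knockout in control medium (-0.38, -0.91 and -0.42) and with Wnt3a in wild-type cells (-0.54, -0.50 and -0.24).

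**Figure D2:**
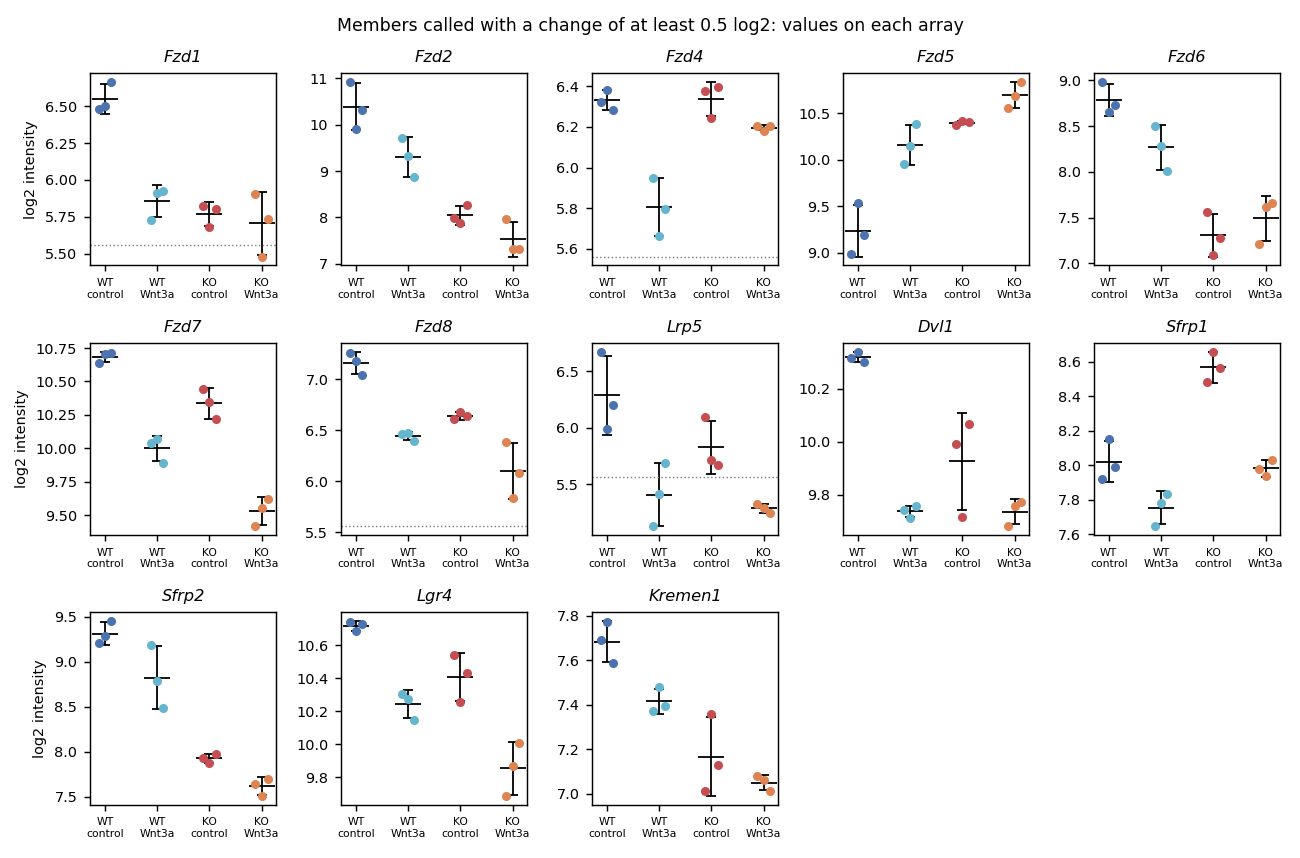
Log2 intensity on each of the 12 arrays for the 13 genes called with a change of at least 0.5 log2 in a pairwise comparison. Points are arrays, horizontal lines and bars are the mean and SD of 3 arrays, the dotted line is the detection floor (5.56), and each panel has its own axis; the wild-type control arrays of Fzd1 lie above the other 9, and those of Fzd5 below.

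Dishevelled proteins carry the signal from Frizzled to the destruction complex. Dvl1 read 10.32, 10.34 and 10.30 in wild-type control arrays, 9.74, 9.71 and 9.76 in wild-type Wnt3a, 9.99, 9.72 and 10.07 in knockout control and 9.68, 9.76 and 9.77 in knockout Wnt3a. The wild-type control arrays stood above all others, and knockout control array 2 lay within the range of the Wnt3a arrays. Dvl1 fell by 0.58 with Wnt3a in wild-type cells (adjusted p = 0.000223) and by 0.39 in the knockout in control medium (adjusted p = 0.00184). With Wnt3a in the knockout its change was -0.19 (adjusted p = 0.0996, or 0.00688 without knockout control array 2), and the difference between the Wnt3a responses was 0.39 (adjusted p = 0.0737). Dvl2 fell by 0.22 with Wnt3a in the knockout (adjusted p = 0.0247). That call was lost without knockout control array 1 (0.0624) or 3 (0.0773), or knockout Wnt3a array 2 (0.0858) or 3 (0.0674). Dvl3 passed in no test with all arrays. The difference between the Wnt3a responses passed for Dvl2 without wild-type control array 2 (0.047) and for Dvl3 without wild-type Wnt3a array 1 (0.0491).

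In the destruction complex and its regulators the called changes were small, at most 0.36 log2 with the brightest probe set, and all of those with Wnt3a were upward. Of 10 genes tested, 2 rose and 2 fell in the knockout in control medium (40% beside 42.2% of all genes). With Wnt3a 4 rose and 0 fell in wild-type cells (40% beside 41.5%). In the knockout 3 rose and 0 fell with Wnt3a (30% beside 28%). In Wnt3a medium 1 rose and 1 fell in the knockout (20% beside 28%).

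Btrc, the F-box protein that recognises phosphorylated beta-catenin, ranged from 8.50 to 8.56 on the wild-type control arrays and from 8.80 to 8.95 on the knockout control arrays, with no overlap. With its brightest probe set it rose in all 4 comparisons. The knockout rise was 0.36 in control medium (adjusted p = 0.00226) and 0.35 in Wnt3a medium (0.00512). With Wnt3a the rise was 0.27 in wild type (0.0133) and 0.26 in the knockout (0.0234). The last was lost without knockout control array 3 (0.1) or knockout Wnt3a array 2 (0.0996). Of 4 tested probe sets of Btrc, 1 was called lower with Wnt3a in wild type and 1 in the knockout. With its probe sets averaged these Wnt3a changes were -0.10 and -0.030. Csnk1a1, the kinase that primes beta-catenin, rose by 0.30 with Wnt3a in wild-type cells (adjusted p = 0.00128) and by 0.16 without passing in the knockout (adjusted p = 0.0519). Apc, a scaffold of the complex, rose by 0.29 with Wnt3a in wild type (adjusted p = 0.0049) and by 0.20 in the knockout in control medium (0.0298).

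Gsk3b, the kinase that marks beta-catenin for destruction, rose with Wnt3a by 0.25 in wild type (adjusted p = 0.00509) and 0.21 in the knockout (0.019). It fell in the knockout, by 0.16 in control medium (0.0404) and 0.20 in Wnt3a medium (0.0222). None of its other tested probe sets was called higher with Wnt3a, and 1454958_at fell in all 4 comparisons (-0.53 with Wnt3a in wild type, -0.48 in the knockout). Csnk1e, another casein kinase of the pathway, rose by 0.33 with Wnt3a in the knockout (adjusted p = 0.0376) with its brightest probe set, while 1417175_at (-0.32) and 1435373_at (-0.45) fell there. Tnks2, a tankyrase that promotes the breakdown of Axin, fell by 0.20 in the knockout in control medium (adjusted p = 0.0325) with its brightest probe set, while 1452772_at rose there (0.40) and by 1.86 with Wnt3a in wild type and 1.38 in the knockout. The call of Apc in the knockout in control medium was lost without any wild-type control array or knockout control array 1 or 2 (adjusted p 0.0514 to 0.119) and with its probe sets averaged (0.114), and that of Tnks2 without any wild-type control array or knockout control array 1 or 3 (0.0504 to 0.11). The Gsk3b call there was lost without 7 of the 12 arrays (0.0574 to 0.119; it passed without wild-type control array 2, wild-type Wnt3a array 1 or 3, or knockout Wnt3a array 1 or 3). Gsk3b was also not called with Wnt3a in the knockout without array 2 of the knockout control group (0.0535) or knockout Wnt3a array 2 (0.0547) or 3 (0.0623), nor in the knockout in Wnt3a medium without array 1 or 2 of either Wnt3a group (0.0595 to 0.0845). Csnk1e was not called without any knockout control array, wild-type control array 3 or knockout Wnt3a array 2 or 3 (0.054 to 0.121).

 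Gsk3a, Axin1 (the scaffold on which the complex forms), Csnk1d and Tnks passed in none of the tests with all arrays and their brightest probe sets. The largest of their changes was that of Tnks in the knockout in control medium, 0.23 (adjusted p = 0.0554), which passed without wild-type Wnt3a array 3 (0.0471) or knockout Wnt3a array 1 (0.0166) or 3 (0.0475). Its dimmer probe set 1459910_at rose by 0.98 with Wnt3a in wild type and gave 0.22 in the knockout, and this difference was called (-0.76, adjusted p = 0.0246 over all probe sets). For Csnk1d 3 of 5 probe sets fell in the knockout in control medium (-0.43, -0.73 and -0.42).

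Ctnnb1, which encodes beta-catenin, read 13.82 to 13.91 over all 12 arrays with its brightest probe set. Its changes were 0.01 in the knockout in control medium (95% confidence interval -0.10 to 0.12), -0.00 with Wnt3a in wild type, 0.03 with Wnt3a in the knockout and 0.04 in the knockout in Wnt3a medium, and none was called. A dimmer probe set, 1430533_a_at, rose by 0.60 with Wnt3a in wild type, 0.44 with Wnt3a in the knockout and 0.26 in the knockout in control medium. Nlk, a kinase that phosphorylates Tcf proteins, fell by 0.34 in the knockout in control medium (adjusted p = 0.000973), where all 3 of its probe sets fell. Its fall of 0.20 with Wnt3a in wild type (adjusted p = 0.0268) was lost without wild-type control array 2 (0.0658) or 3 (0.0654) or wild-type Wnt3a array 3 (0.112), and 1419112_at rose there by 0.49. Ctnnbip1, an inhibitor of the beta-catenin to Tcf contact, passed in no test.

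With their brightest probe sets, all calls among the co-repressors were downward in the 4 pairwise comparisons. Of 5 tested, 2 fell in the knockout in control medium (40% beside 42.2% of all genes). With Wnt3a 2 fell in wild type (40% beside 41.5%) and 2 in the knockout (40% beside 28%). In Wnt3a medium 3 fell in the knockout (60% beside 28%). Ctbp1 and Ctbp2, which recruit chromatin-modifying enzymes, fell by 0.29 (adjusted p = 0.00764) and 0.17 (0.0377) in the knockout in control medium. Ctbp2 fell by 0.33 (0.00136) in Wnt3a medium, together with Tle1 (-0.29, 0.00953) and Tle3 (-0.25, 0.0104), members of the Groucho family that Tcf proteins bind. Tle4 fell with Wnt3a by 0.31 in wild type (0.0147) and 0.36 in the knockout (0.0121), although 1425650_at rose by 0.70 in wild type. Tle1 rose there too with 1422751_at (0.38, adjusted p = 0.0207 over all probe sets) and with its probe sets averaged (0.20, 0.0447), beside 0.02 with its brightest probe set. Tle1 also fell with Wnt3a in the knockout (-0.25, 0.0191) and Ctbp1 with Wnt3a in wild type (-0.22, 0.0313). The Ctbp2 call in control medium was lost without wild-type control array 2 or 3, knockout control array 2 or 3, or array 2 of either Wnt3a group (adjusted p 0.0518 to 0.109). That of Ctbp1 with Wnt3a was lost without wild-type control array 1 or 3 or wild-type Wnt3a array 2 or 3 (0.0674 to 0.118), that of Tle4 in wild type without wild-type control array 2 (0.054), and that of Tle1 with Wnt3a without array 1 of the knockout control group (0.0662) or knockout Wnt3a array 2 (0.0581) or 3 (0.0594). Tle2 was below the floor on every array (4.69 to 5.18) and was not tested.

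The co-activators Bcl9 and Bcl9l, which bridge beta-catenin to Pygo proteins, fell. Bcl9l read 8.46, 8.35 and 8.39 in wild-type control arrays, 7.91, 8.01 and 7.91 in wild-type Wnt3a, 7.89, 8.04 and 8.02 in knockout control and 7.65, 7.63 and 7.70 in knockout Wnt3a. The wild-type control arrays were above all others and the knockout Wnt3a arrays below all others. It fell by 0.41 in the knockout in control medium (adjusted p = 0.000232), 0.46 with Wnt3a in wild type (0.000221), 0.33 with Wnt3a in the knockout (0.00332) and 0.28 in the knockout in Wnt3a medium (0.00589). None of the 4 was called with its probe sets averaged (adjusted p 0.126 to 0.607), a mean that includes 2 probe sets that did not pass the filter. Bcl9 fell by 0.48 with Wnt3a in wild type (0.00328), 0.33 in the knockout in control medium (0.0219) and 0.32 with Wnt3a in the knockout (0.0352). The second was lost without wild-type control array 1 (0.0961) or 3 (0.0745) or knockout control array 1 (0.0925). The last was lost without array 2 or 3 of either knockout group (0.0715 to 0.119). Pygo2, a reader of histone methylation, passed in no test with all arrays. Its changes with Wnt3a in the knockout and in the knockout in Wnt3a medium, both -0.15, passed without knockout Wnt3a array 3 (0.045 and 0.0404). Pygo1 was below the floor on every array (4.63 to 5.25).

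Among the secreted inhibitors, Sfrp1 and Sfrp2 moved in opposite directions in the knockout. Both encode decoys that resemble the Wnt-binding part of Frizzled. Sfrp1 read 7.92, 8.15 and 7.99 in wild-type control arrays, 7.65, 7.78 and 7.83 in wild-type Wnt3a, 8.48, 8.66 and 8.57 in knockout control and 7.98, 7.93 and 8.03 in knockout Wnt3a. The knockout control arrays were the highest. Sfrp1 was 1.46-fold higher in the knockout in control medium (log2 change 0.55, adjusted p = 0.000136), and 4 of its 5 probe sets rose there, by up to 1.09. Wnt3a lowered it 1.50-fold in the knockout (log2 change -0.59, adjusted p = 0.000409) and by 0.27 in wild type (0.0167). The latter was lost without wild-type control array 2 or wild-type Wnt3a array 1 (0.0608 each), and the difference between the responses did not pass (-0.32, adjusted p = 0.123), although it did for the dimmer probe set 1460187_at (-1.38 in the knockout and -0.38 in wild type, a difference of -0.998, adjusted p = 0.0404 over all probe sets). In Wnt3a medium the knockout was 0.23 higher (0.0454). That call was lost without 7 of the 12 arrays (0.0626 to 0.16; it passed without wild-type control array 1 or 2, knockout control array 1 or 2, or wild-type Wnt3a array 3).

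Sfrp2 read 9.20, 9.28 and 9.45 in wild-type control arrays, 9.19, 8.79 and 8.49 in wild-type Wnt3a, 7.93, 7.88 and 7.98 in knockout control and 7.65, 7.51 and 7.70 in knockout Wnt3a. Every knockout array was below every wild-type array. It was 2.60-fold lower in the knockout in control medium (log2 change -1.38, SE 0.14, adjusted p = 1.05e-05) and 2.30-fold lower in Wnt3a medium (adjusted p = 9.57e-05). With Wnt3a in wild type it fell by 0.49 (0.0147), a call lost without wild-type control array 3 (0.0619) or wild-type Wnt3a array 3 (0.0512). In the knockout the Wnt3a change of -0.31 did not pass (0.116), and did without wild-type Wnt3a array 1 (0.0279) or 3 (0.0453).

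Kremen1, a receptor for Dkk proteins, read 7.69, 7.77 and 7.59 in wild-type control arrays, 7.37, 7.48 and 7.39 in wild-type Wnt3a, 7.01, 7.36 and 7.13 in knockout control and 7.08, 7.06 and 7.01 in knockout Wnt3a. The wild-type control arrays were the highest and each genotype pair was separate. It fell in the knockout by 0.52 in control medium (adjusted p = 0.000413) and 0.37 in Wnt3a medium (0.00764, or 0.0776 with its probe sets averaged). The fall of 0.27 with Wnt3a in wild type (0.0248) was lost without wild-type control array 1 (0.0601) or 2 (0.0808), or wild-type Wnt3a array 1 (0.0661) or 3 (0.065). Dkk1, which binds Lrp5 and Lrp6 and is often induced by Wnt signalling, ranged from 5.56 to 6.71 over the arrays and passed in no test, with a wide interval for the knockout in control medium (-0.01, 95% confidence interval -0.54 to 0.53). Frzb (5.10 to 5.63) and Wif1 (3.74 to 4.21), both secreted Wnt binders, were not tested, since Frzb was above the floor on 2 arrays and Wif1 on 0.

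Receptor turnover is set by the ligases Znrf3 and Rnf43, which remove Frizzled from the surface, and by the R-spondin receptors Lgr4 and Lgr5, which restrain them. Lgr4 read 10.74, 10.68 and 10.73 in wild-type control arrays, 10.30, 10.28 and 10.14 in wild-type Wnt3a, 10.54, 10.25 and 10.43 in knockout control and 9.69, 9.87 and 10.00 in knockout Wnt3a. The wild-type control arrays were the highest and the knockout Wnt3a arrays the lowest. Lgr4 fell with Wnt3a by 0.48 in wild type (adjusted p = 0.00179) and 0.56 in the knockout (0.00137). In the knockout it fell by 0.31 in control medium (0.0176, or 0.0507, 0.0519 and 0.0759 without wild-type control array 1, wild-type control array 3 and knockout control array 2) and by 0.39 in Wnt3a medium (0.0085); with its probe sets averaged neither of these was called (0.255 and 0.136).

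Lgr5, a Wnt target and stem cell marker in several tissues, rose with Wnt3a from control means below the floor. It read 5.34, 5.48 and 5.44 in wild-type control arrays, 5.90, 6.11 and 5.67 in wild-type Wnt3a, 5.30, 5.62 and 5.29 in knockout control and 5.94, 5.71 and 5.83 in knockout Wnt3a. Every Wnt3a array was above every control array. Lgr5 passed the signal filter only through its Wnt3a arrays, so this separation is no separate support for the rise. With no filter on low values the call was kept in both genotypes. The rise was at least 1.26-fold in wild type (adjusted p = 0.00729) and at least 1.20-fold in the knockout (adjusted p = 0.0201), the latter lost without knockout control array 1 (0.071) or 3 (0.0819) or knockout Wnt3a array 1 (0.0592). Znrf3 fell by 0.47 with Wnt3a in the knockout (0.011) and was 0.35 lower in the knockout in Wnt3a medium (0.0398). The latter was lost without 7 of the 12 arrays (0.0505 to 0.134; it passed without wild-type control array 1 or 2, wild-type Wnt3a array 1, or knockout Wnt3a array 2 or 3). Rnf43 was below the floor on every array (4.47 to 4.94) and was not tested.

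The probe sets of a gene did not always move together. Of the 43 genes, 28 had at least 2 tested probe sets, 81 in all. In the knockout in control medium 1 gene, Tnks2, had probe sets called in opposite directions. With Wnt3a 4 did in wild type (Gsk3b, Btrc, Tle4 and Nlk) and 3 in the knockout (Gsk3b, Csnk1e and Btrc), and none did in the knockout in Wnt3a medium. Fzd2 fell with each of its 3 probe sets in the knockout in control medium (-2.33, -2.25 and -1.56), whereas Fzd1, Fzd6, Fzd8, Lgr4 and Bcl9l each rest on a single tested probe set.

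**Figure D3:**
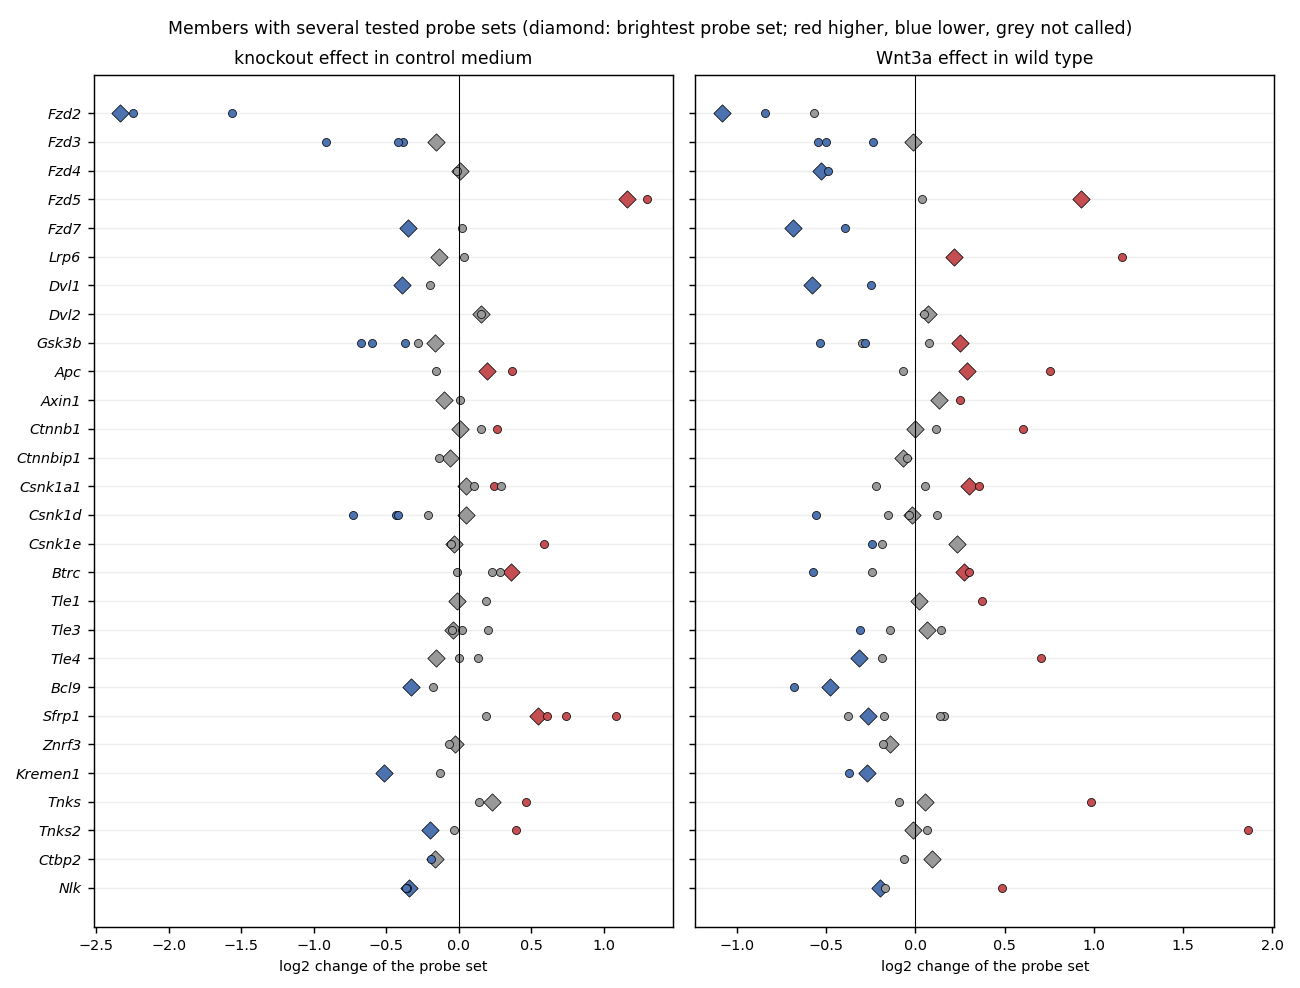
Change (log2) of each of 81 tested probe sets of the 28 genes with more than 1, for the knockout in control medium (left) and Wnt3a in wild-type cells (right). Diamonds mark the brightest probe set and circles the others; the right panel shows Tnks2 with 1 probe set at 1.86 and its brightest at -0.01.

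Of 88 other genes of the pathway, 77 were tested. In the knockout in control medium 48.1% of them were called (14 higher, 23 lower), beside 42.2% of all genes. With Wnt3a in wild type 31.2% were called (12 and 12), beside 41.5%. The counts were 9 and 11 with Wnt3a in the knockout (26% beside 28%). They were 9 and 18 in the knockout in Wnt3a medium (35.1% beside 28%). For the difference between the Wnt3a responses they were 1 and 1 (2.6% beside 4.08%). Prickle1, a planar polarity gene, fell 4.37-fold in the knockout in control medium (log2 change -2.13, adjusted p = 4.43e-07), and Ror1, a Wnt receptor kinase, was at least 1.87-fold lower. Tle5, a short relative of the Tle co-repressors, rose from a mean of 8.63 to 9.63 in the knockout in control medium (adjusted p = 7.6e-05) and by 0.92 with Wnt3a in wild type. Axin2, a target of the pathway that feeds back on it, rose by 0.76 with Wnt3a in wild type (adjusted p = 0.00232), and its 0.41 in the knockout did not pass (0.0644). Ppp2r5e, a regulatory subunit of phosphatase 2A, rose by 1.35 in wild type (1.79e-06) and 0.99 in the knockout with Wnt3a.

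The difference between the Wnt3a responses was called for Rspo1, which encodes a ligand of the Lgr receptors (0.71, adjusted p = 0.0104), and for Notum, a secreted enzyme that inactivates Wnt (-1.07, adjusted p = 0.0301). Rspo1 fell by 0.81 with Wnt3a in wild type and changed by -0.09 in the knockout, beside -0.69 and -0.06 for Fzd1. Notum fell by 0.68 with Wnt3a in the knockout (adjusted p = 0.0107). That call was lost without knockout control array 3 (0.0509). The Notum difference was lost without 8 of the 12 arrays (0.0578 to 0.0772; it passed without array 2 of either control group or array 1 of either Wnt3a group).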

How the data were processed

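Total RNA of 12 samples was hybridised to Affymetrix arrays, 1 array per sample. The authors' deposited values are linear-scale intensities, 1 per probe set and array, and the submitters' processing notes name RMA, with version not given in the sources used here. Intensities were taken as log2 with no pseudocount. Probe sets were named through the platform annotation: 34945 of 45101 had 1 symbol, 932 several, 9160 none and 64 were controls. A gene took its probe set with the highest mean, and genes with at least 3 of 12 arrays above the 40th percentile of all values (intensity 47.2) were tested.

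The package limma (3.58.1, under R 4.3.3) fitted 4 group means over all 12 arrays with lmFit, then eBayes, with Benjamini-Hochberg adjustment over 13811 genes and a threshold of 0.05; the Wnt3a response in knockout minus that in wild type was the interaction. Probe sets were tested likewise over 28483. On simulated data for the knockout in control medium (13811 genes), 100 genes were changed by 1 log2 and 100 by 0.5. Of these 97% and 74% were recovered, and 6.56% of calls were false. No other gene was changed in the simulation, whereas 42.2% of all genes were called in the real comparison. Its rates may therefore not hold for the real data. The number of arrays limits the precision. Replicate numbers did not pair the arrays.

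The 48 genes, the other pathway genes and the marker lists were chosen with earlier results of these data known. By rule the text names the called genes of each role group, gives every array for those called at 0.5 log2 or more, and names up to 4 other pathway genes each way per comparison. Alternatives changed the filter, the probe set, the scaling, the prior, the arrays fitted and the replicate block, and left out each array.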

Additional observations from a re-analysis of the deposited data

Results flagged for a closer look

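The response of Fzd1 to Wnt3a differed between the genotypes by 0.63 log2 (limma interaction, adjusted p = 0.0379): it fell by 0.69 in wild-type cells and changed by -0.06 in the knockout, where its mean was 5.77 in control medium beside a floor of 5.56. The dap spike-in control, which no comparison used, averaged 10.95 on the Wnt3a arrays against 4.25 on the control arrays, with no overlap.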

How the results depend on the processing

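Of 78 called results of the 48 genes, 36 kept direction and call under every alternative, and of 137 not called 94 stayed uncalled. With the probe sets of a gene averaged, 8 called results turned in sign and 4 uncalled ones were called with the opposite sign; the cause was not tested. Changes of sign that were called neither before nor after are not counted. With that average the knockout in control medium gave -0.35 for Csnk1d (adjusted p = 0.00012) and 0.057 for Tnks2. Wnt3a in wild type gave -0.10 for Btrc, 0.24 for Ctnnb1 (0.00287), -0.16 for Gsk3b, 0.039 for Nlk, 0.067 for Tle4, 0.64 for Tnks2 (2.44e-05) and 0.037 for Daam1, a gene outside the list. Wnt3a in the knockout gave -0.030 for Btrc, -0.15 for Csnk1e, -0.084 for Gsk3b and 0.22 for Nlk (0.0272). The counts in the knockout in Wnt3a medium became 2 higher and 8 lower. Genes lower with Wnt3a in the knockout numbered 7 after median centring. The interaction called 0 with the stricter filter, which left Fzd1 untested, and 2 (Fzd1 and Dvl1) after repeated quantile normalization. It could not be fitted on only the arrays compared, since it needs all 12.

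Leaving out 1 array at a time gave 3 to 5 higher and 11 to 17 lower in the knockout in control medium, 6 to 8 and 12 to 17 with Wnt3a in wild type, 2 to 5 and 7 to 13 with Wnt3a in the knockout, 2 to 4 and 10 to 14 in the knockout in Wnt3a medium, and 0 to 2 each way for the interaction. Replicate numbers did not pair the arrays (correlations of same-numbered deviations from -0.257 to 0.244). With the replicate block 5600 genes were called in the knockout in control medium in place of 5824, and in the list Ctbp2 (0.0608), Gsk3b (0.0631), Lrp6 (0.0566) and Bcl9 (0.0529) lost a call while Tnks (0.0377) and Fzd10 (0.0376) gained one. Signal limits Tle2, Pygo1, Frzb, Wif1 and Rnf43, which were not tested.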
